A study of Mus musculus with 8 samples.

Results

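The genes described here are the 37 rows of the deposited gene table that lie on the mitochondrial chromosome, out of 33249 rows in all. They were taken by chromosome and not by their values: 13 protein-coding rows, 2 rRNA rows and 22 tRNA rows, of which 14 tRNA genes are read from the plus strand and 8 from the minus strand. Every one of the 37 rows passed the filter on low values, a mean FPKM (fragments per kilobase of gene, scaled to library size) of at least 0.5 over the libraries. The 8 libraries came from mouse myocardium, 2 from each of 4 groups, and poly(A) RNA was sequenced. The groups labelled fl/fl-Sham and fl/fl-MI hold mice with loxP-flanked Piezo1 and no Cre (genotype label WT), and those labelled CKO-Sham and CKO-MI hold littermates that also carry Myh6-MerCreMer (genotype label Piezo1 knockout). Piezo1 is a mechanosensitive cation channel. MerCreMer is a Cre recombinase fused to parts of the estrogen receptor Esr1, driven by the cardiomyocyte promoter Myh6 and active only after tamoxifen, which was given before surgery; whether the fl/fl mice also received it is not stated. MI is a myocardial infarction made by tying off the anterior descending branch of the left coronary artery for good, and the MI libraries carry the label day 42; sham mice had the same surgery without ligation. The labels give neither the zone of the myocardium nor whether a library is 1 mouse, so the p-values measure the spread between these libraries.

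The mouse mitochondrial genome is a small circle that encodes subunits of respiratory complexes I, III and IV and of ATP synthase, together with the rRNAs and tRNAs that translate them. Nearly all other mitochondrial proteins, including every subunit of complex II, are encoded in the nucleus. Both strands are transcribed as long precursors, and the tRNAs that punctuate them are cut out to free the mRNAs and rRNAs. The mRNAs carry short poly(A) tails, which complete the stop codon of several of them, whereas mature tRNAs carry none. The myocardium is among the tissues richest in mitochondria.

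Some mitochondrial sequences decide what these rows can show. The mRNA rows of mt-Co3, mt-Nd4 and mt-Cytb end with a lone T in place of a stop codon, which the poly(A) tail completes. The last 18 bases of these rows are given 5′ to 3′ with that T in capitals (GENCODE M21 transcripts, build GRCm38):
mt-Co3: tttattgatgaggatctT
mt-Nd4: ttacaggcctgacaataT
mt-Cytb: tactaaaattatatccaT

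Stretches of mitochondrial DNA were also copied into the nuclear genome, and 7 such copies on chromosome 1 have rows of their own in the gene table. Of these, 5 (Gm10925, Gm28661, Gm28437, Gm10222 and Gm28439) had no mismatch to mt-Atp6, mt-Co2, mt-Co3, mt-Nd4l and the first 876 bases of mt-Nd4. The other 2 differed by 1 base each over the aligned stretch, Gm28438 from mt-Nd3 by T3C and Gm29216 from mt-Co1 by A1066T, with positions counted from the first base of the mitochondrial gene. Around these bases, in capitals, the sequences read as follows, at MT:9459-9481 for mt-Nd3 and MT:6390-6413 for mt-Co1 on the plus strand:
mt-Nd3: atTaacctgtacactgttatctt
Gm28438: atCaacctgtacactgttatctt
mt-Co1: ggaAttgttttatccaactcatcc
Gm29216: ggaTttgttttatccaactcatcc

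The copies had high counts of their own, close to those of the matching gene for 5 of the 7, while Gm28439 had 0.492 to 0.615 times the counts per base of mt-Nd4 and Gm29216 0.106 to 0.188 times those of mt-Co1. Per base, Gm10925 had 1.02, 1.02, 1.02 and 1.03 times the counts of mt-Atp6 after sham and 1.04, 1.01, 1.03 and 1.05 times after MI. Here and below, 4 values in a row are fl/fl 1, fl/fl 2, CKO 1 and CKO 2. Gm28661, Gm28437 and Gm10222 lay between 0.912 and 1.004 times the counts of mt-Co2, mt-Co3 and mt-Nd4l in every library. Reads of identical sequences cannot be told apart, so the levels of mt-Atp6, mt-Co2, mt-Co3, mt-Nd3, mt-Nd4l, part of mt-Nd4 and the end of mt-Co1 are uncertain. The 7 copies together took up 9.52% to 9.83% of all counts after sham and 4.10% to 4.65% after MI. Summing each copy with its mitochondrial row, a choice made after seeing the data, moved no count of called members by more than 1.

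**Figure D1:**
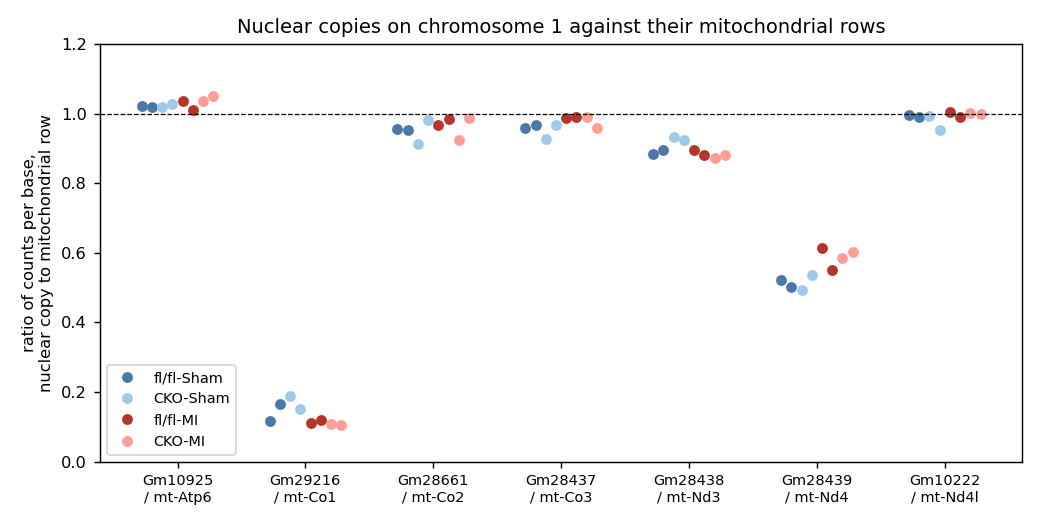
Counts per base of each nuclear copy divided by counts per base of its mitochondrial row, 1 point per library, coloured by group. A dashed line marks 1. Gm10925, Gm28661, Gm28437 and Gm10222 sit near 1 in all 8 libraries, and Gm29216, which matches only the end of mt-Co1, lies between 0.106 and 0.188.

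Neighbouring rows share bases as well. The frames of mt-Atp8 and mt-Atp6 overlap by 43 bases (MT:7927-7969, plus strand), printed here with the start codon of mt-Atp6 and the stop codon of mt-Atp8 at its ends:
mt-Atp8 and mt-Atp6: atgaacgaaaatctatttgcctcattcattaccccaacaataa

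The rows of mt-Nd4l and mt-Nd4 share 7 bases, and mt-Nd5 and mt-Nd6 share 14 bases on opposite strands. The library kit marks strand, but whether strand was used in counting is not given in the sources used here, so a tRNA row on one strand may hold reads of an mRNA on the other. The tRNA genes are shorter than the sequenced fragments, and counts in these rows need not be mature tRNA. The tRNA rows that the results turn on are given 5′ to 3′ with the anticodon in capitals (for leucine UUR, serine UCN, glutamate, asparagine, isoleucine and glutamine), at MT:2676-2750 plus, MT:6870-6938 minus, MT:14071-14139 minus, MT:5089-5159 minus, MT:3706-3774 plus and MT:3772-3842 minus:
mt-Tl1: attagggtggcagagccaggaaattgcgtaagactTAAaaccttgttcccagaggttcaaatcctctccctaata
mt-Ts1: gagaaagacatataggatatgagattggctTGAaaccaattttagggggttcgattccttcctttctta
mt-Te: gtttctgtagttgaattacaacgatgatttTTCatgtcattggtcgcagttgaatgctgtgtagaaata
mt-Tn: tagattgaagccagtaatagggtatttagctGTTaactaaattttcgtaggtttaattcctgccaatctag
mt-Ti: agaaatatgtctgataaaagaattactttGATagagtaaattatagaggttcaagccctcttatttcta
mt-Tq: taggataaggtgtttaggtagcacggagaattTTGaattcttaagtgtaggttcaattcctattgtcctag

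Total counts per library ran from 73821747 to 88117573. Piezo1, the targeted gene, stood at 71.9, 81.6, 76.3 and 87.9 CPM (counts scaled to library size after normalisation) after sham and at 53.3, 64.5, 56.0 and 64.3 CPM after MI, so it was not lower in the libraries labelled CKO. The knockout is aimed at cardiomyocytes, and other heart cells also express Piezo1, so counts of bulk myocardium are a weak check. The paper reports a Western blot of the deletion in isolated cardiomyocytes. Esr1, part of which the transgene carries, was at 329.7, 703.7 and 400.5 CPM in the libraries labelled fl/fl-MI 2, CKO-MI 1 and CKO-MI 2 and at 5.49 to 8.32 CPM in the other 5. Because of this, every direction between genotypes below rests on the labels alone. The library labelled fl/fl-MI 2 also stood apart by its atrial markers (Bmp10, Myl4, Myl7, Sln and Nppa), which summed to 19760 CPM against 2535 to 4430 CPM in the other MI libraries and 134 to 591 CPM after sham. In the test given below, only 1 of these 5 genes was higher after MI averaged over genotypes. Their median log2 fold change was 6.70 in fl/fl and -1.14 in CKO. The cardiomyocyte markers were abundant in all 8 libraries, and no gene of any marker list was at 0 in all of them.

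The first question was how much of the RNA is mitochondrial after MI. The mitochondrial rows held 46.4%, 43.1%, 44.7% and 46.4% of all counts after sham and 19.9%, 22.8%, 24.2% and 21.1% after MI. The share was 45.2% ± 1.59 (SD, n = 4) after sham and 22.0% ± 1.89 (SD, n = 4) after MI. The MI libraries lay below every sham library, and the genotypes overlapped within each surgery. The share of summed FPKM, which weights short genes more, was 61.6% to 64.6% after sham and 43.6% to 49.2% after MI. Such a share sums over the members, and no test was run on it.

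**Figure D2:**
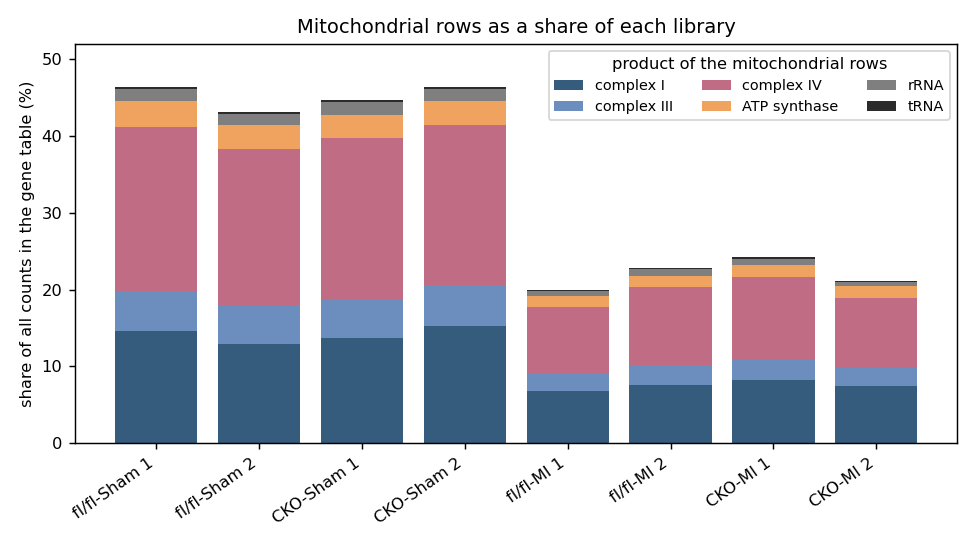
Bars give the share of all counts in the gene table (%) held by the mitochondrial rows in each of the 8 libraries, stacked by product. The 4 sham libraries reach 43.1% to 46.4% and the 4 MI libraries 19.9% to 24.2%.

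In bulk tissue, fewer cells of a type and less RNA per cell cannot be told apart. Markers of other cell types moved with MI: the 8 fibroblast markers summed to 1407 to 1551 CPM after sham and 2213 to 6396 CPM after MI, and 7 of them rose. The 7 endothelial markers summed to 1552 to 1855 CPM after sham and 576 to 994 CPM after MI, and 6 of them fell. The 12 cardiomyocyte markers ranged from 41290 to 47760 CPM after sham and from 26210 to 47180 CPM after MI, with 3 higher and 4 lower. The MI libraries with the smallest mitochondrial shares, labelled fl/fl-MI 1 and CKO-MI 2, had the lowest cardiomyocyte sums (26210 and 30850 CPM) and the highest fibroblast sums (6396 and 5418 CPM). Those labelled fl/fl-MI 2 and CKO-MI 1 had cardiomyocyte sums of 45830 and 47180 CPM, within the sham range, and fibroblast sums of 2213 and 3278 CPM. Their mitochondrial shares were 22.8% and 24.2%, against 43.1% to 46.4% after sham. The marker sums are normalised and the shares are of counts as deposited. The place of these sums within the sham range therefore holds for normalised values only. Smooth muscle and mural markers summed to 1290 to 1404 CPM after sham and 494 to 679 CPM after MI, but only 2 of 6 fell (median log2 fold change -0.10). Adipocyte markers summed to 865 to 1441 and 293 to 407 CPM, and 1 of 4 tested fell (median -0.21). Macrophage markers summed to 470 to 541 and 447 to 1146 CPM, and 3 of 8 rose. Erythroid markers summed to 79.4 to 549 and 271 to 749 CPM, and all 5 rose. Lymphocyte markers summed to 2.93 to 6.37 and 2.37 to 5.27 CPM. Markers that rose or fell were called by the test given below, averaged over genotypes (22.0% of all rows higher, 18.3% lower). The part of these cell types in the mitochondrial result was not tested.

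Most mitochondrial rows were lower after MI. In edgeR's quasi-likelihood test, with counts scaled by the trimmed mean of M values (TMM) and p-values adjusted over 14028 rows, 29 of the 37 members were lower after MI when both genotypes were averaged, at an adjusted p under 0.05, and none was higher. Of all rows tested, 18.3% were called lower and 22.0% higher in that comparison. The called members were all 13 protein-coding rows, both rRNA rows and 14 of the 22 tRNA rows. The median log2 fold change was -1.56 over the members and 0.03 over all rows tested. In fl/fl, 27 members were lower (8.45% of all rows lower, 10.1% higher) with a median of -1.66, and in CKO 22 were lower (11.9% of all rows lower, 12.8% higher) with a median of -1.23. With library totals in place of TMM the median of all rows moved to 0.59 and that of the members to -1.01, which is -1.61 relative to all rows, and 27 members were called lower, where 805 of the 14028 rows were lower and 7296 higher. On log2(TPM + 1), where the median of all rows moved to 0.92, the members' median was -0.43 with 19 lower and 2 higher, where 278 of all rows were lower and 10755 higher. Every library of the MI arm lay below every sham library in 29 members, against 19.5% of all rows. Leaving out 1 library kept the members' median between -1.69 (without CKO-MI 1) and -1.38 (without fl/fl-Sham 1). Within a genotype the counts were less stable: without fl/fl-Sham 1 the count in fl/fl was 6 (126 of all rows called), without CKO-Sham 1 that in CKO was 0 (25 of all rows called), and fitting only the 4 fl/fl libraries left 7 (199 of all rows called).

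**Figure D3:**
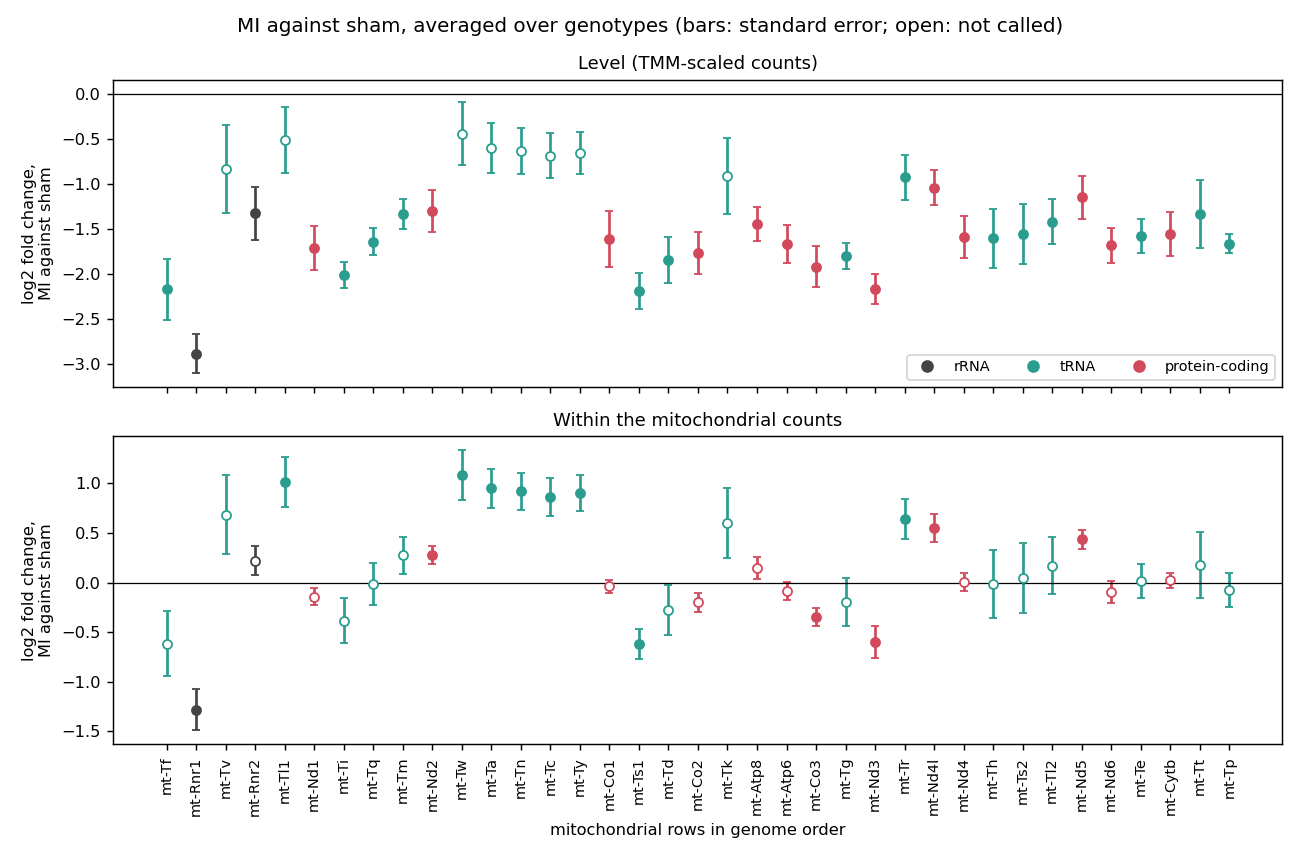
Log2 fold change of MI against sham averaged over genotypes for the 37 mitochondrial rows in genome order, with standard errors; filled points were called at an adjusted p under 0.05. The upper panel uses TMM-scaled counts and all rows lie below 0; the lower panel uses the mitochondrial total as library size, where mt-Rnr1 falls by 1.28 and mt-Tl1 and mt-Tw rise by 1.01 and 1.08.

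Complex I, the NADH dehydrogenase that feeds electrons into the chain, takes 7 of its subunits from the mitochondrial genome. Levels are given as CPM after TMM, rounded to 4 digits. The membrane subunit mt-Nd1 stood at 42340, 37090, 44630 and 46790 CPM after sham and at 10480, 15250, 15190 and 11000 CPM after MI. Its neighbour mt-Nd2 had 30190, 24640, 25460 and 29630 CPM after sham and 9225, 12680, 12880 and 9704 CPM after MI. The groups did not overlap in either gene, with log2 fold changes of -1.71 (standard error 0.25) and -1.31 (standard error 0.23). The core subunit mt-Nd4 had 49750, 40760, 43950 and 50590 CPM after sham and 13250, 15270, 18130 and 14890 CPM after MI, a log2 fold change of -1.59.

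The small subunit mt-Nd3 was the lowest of the mRNAs and had the largest fall among them. It stood at 924, 1022, 1247 and 1011 CPM after sham and at 205, 254, 277 and 198 CPM after MI, a log2 fold change of -2.17 (standard error 0.17, adjusted p = 0.000547, edgeR). The smallest falls among the mRNAs were in mt-Nd4l and mt-Nd5. mt-Nd4l, which shares a transcript with mt-Nd4, had 5076, 4129, 3649 and 5472 CPM after sham and 1911, 2318, 2482 and 2171 CPM after MI. mt-Nd5 had 41850, 33600, 32450 and 42050 CPM after sham and 13920, 17740, 19790 and 16120 CPM after MI. Their log2 fold changes were -1.05 (standard error 0.19) and -1.15 (standard error 0.24), and sham and MI libraries did not overlap in either. The only mRNA read from the minus strand, mt-Nd6, had 12480, 9832, 12150 and 13010 CPM after sham and 3157, 3559, 4679 and 3437 CPM after MI, a log2 fold change of -1.68. Per length, and without the reads in the copies of mt-Nd4, mt-Nd4l and mt-Nd3, which leave their places in the order uncertain, the sham medians within complex I ran from mt-Nd1 at 35940 FPKM through mt-Nd4 at 26840, mt-Nd2 at 21120, mt-Nd6 at 18750, mt-Nd5 at 16510 and mt-Nd4l at 12370 to mt-Nd3 at 2358 FPKM. The sham ranges of mt-Nd6 (15690 to 19720 FPKM) and mt-Nd5 (14350 to 18130 FPKM) overlapped, as did those of mt-Nd6 and mt-Nd2 (19660 to 22510 FPKM) and of mt-Nd5 and mt-Nd4l (9913 to 14490 FPKM) at their edges.

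Cytochrome b, mt-Cytb, is the sole mitochondrially encoded subunit of complex III, which passes electrons from ubiquinol to cytochrome c. It stood at 66020, 57200, 58840 and 64130 CPM after sham and at 17810, 22500, 24420 and 18800 CPM after MI, without overlap, a log2 fold change of -1.56 (standard error 0.25).

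The catalytic core of complex IV, the oxidase that reduces oxygen, is made of mt-Co1, mt-Co2 and mt-Co3. mt-Co1 was the highest of the 37, at 206900, 182100, 189700 and 198200 CPM after sham and 50980, 72080, 75540 and 55640 CPM after MI. In mt-Co2 the values were 26160, 25210, 28110 and 26570 CPM after sham and 6521, 9053, 9334 and 6227 CPM after MI. All 3 fell and none overlapped, with log2 fold changes of -1.61 for mt-Co1, -1.77 for mt-Co2 and -1.92 for mt-Co3. mt-Co3 had 34470, 32850, 34860 and 32830 CPM after sham and 7697, 10040, 10290 and 7595 CPM after MI. Because of the copies on chromosome 1, the levels of mt-Co2 and mt-Co3 cannot be set against that of mt-Co1.

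ATP synthase takes mt-Atp6, part of its proton channel, and the small mt-Atp8 from the mitochondrial genome. mt-Atp6 stood at 31010, 27620, 27760 and 29750 CPM after sham and at 7973, 9892, 10440 and 8175 CPM after MI. mt-Atp8 had 11040, 9008, 7434 and 9060 CPM after sham and 2907, 3425, 3924 and 3094 CPM after MI. Both fell without overlap, by 1.67 and 1.45 on the log2 scale, and part of their counts may be shared over the overlap.

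mt-Rnr1 (ENSMUSG00000064337, MT:70-1024), the 12S rRNA of the small mitochondrial ribosome subunit, stood at 6054, 5413, 6984 and 5761 CPM after sham and at 803, 549, 1160 and 809 CPM after MI. mt-Rnr2 (ENSMUSG00000064339, MT:1094-2675), the 16S rRNA of the large subunit, had 13940, 10820, 13710 and 13210 CPM after sham and 3760, 6884, 6456 and 3500 CPM after MI. The log2 fold change of mt-Rnr1 was -2.89 (standard error 0.22, adjusted p = 0.000532, edgeR), the largest fall of the 37, and that of mt-Rnr2 was -1.33 (standard error 0.29, adjusted p = 0.01203, edgeR). Per base, mt-Rnr1 had 0.720, 0.829, 0.844 and 0.723 times the counts of mt-Rnr2 after sham and 0.354, 0.132, 0.298 and 0.383 times after MI. The ratio was 0.779 ± 0.0668 (SD, n = 4) after sham and 0.292 ± 0.112 (SD, n = 4) after MI, with no overlap, and the lowest value was that of the library labelled fl/fl-MI 2. Poly(A) selection keeps only part of the rRNA, so neither row gives the amount of ribosomes.

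Among the tRNA rows, 4 held the highest counts. mt-Ts1, on the strand opposite mt-Co1 and next to its end, stood at 1076, 842, 978 and 876 CPM after sham and at 158, 225, 265 and 180 CPM after MI. mt-Te, beside mt-Nd6 on the minus strand, had 799, 581, 735 and 875 CPM after sham and 225, 214, 343 and 222 CPM after MI. Both fell without overlap, by 2.19 and 1.58 on the log2 scale.

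The other 2 did not pass the test. mt-Tl1, between mt-Rnr2 and mt-Nd1, had 457, 314, 313 and 369 CPM after sham and 158, 431, 298 and 140 CPM after MI, with the library labelled fl/fl-MI 2 above 3 of the sham libraries. MI moved it by -0.51 on the log2 scale (standard error 0.37, adjusted p = 0.2962, edgeR), or by -0.96 without that library, which leaves 1 library labelled fl/fl-MI. mt-Tn had 160, 128, 94.6 and 125 CPM after sham and 59.3, 91.2, 116 and 57.5 CPM after MI, a log2 fold change of -0.64 (standard error 0.26, adjusted p = 0.08794, edgeR). mt-Tn belongs to the tight cluster of mt-Tw, mt-Ta, mt-Tn, mt-Tc and mt-Ty between mt-Nd2 and mt-Co1. None of these 5 rows passed the test, with log2 fold changes of -0.44 to -0.69, and their sham and MI libraries overlapped. mt-Tv and mt-Tk, which did not pass either, had -0.84 and -0.92. The 12 tRNA rows called beside mt-Ts1 and mt-Te had log2 fold changes between -2.17 for mt-Tf and -0.93 for mt-Tr. Depth limits some of these: mt-Tf, mt-Tv, mt-Ts2 and mt-Tt had from 37 to 342 counts in a library, against 13598 or more for mt-Tl1.

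The second question was whether the make-up of the mitochondrial RNA changed, whatever its amount. Protein-coding rows held 95.6% to 96.3% of mitochondrial counts after sham and 95.7% to 96.8% after MI, rRNA rows 3.22% to 3.88% and 2.66% to 3.66%, and tRNA rows 0.514% to 0.597% and 0.570% to 0.702%. These shares of counts overlapped between sham and MI. As a share of mitochondrial FPKM, the rRNA rows took 2.37% to 2.89% after sham and 1.803% to 2.321% after MI, below without overlap. Complex I subunits held 30.0% to 33.0% after sham and 33.1% to 35.5% after MI, and complex IV subunits 45.1% to 47.7% and 42.8% to 45.0%. Those ranges just failed to overlap, complex I being higher and complex IV lower after MI. They leave out the reads held by the nuclear copies. Complex III took 11.02% to 11.35% and 11.09% to 11.76%, and ATP synthase at 6.59% to 7.27% and 6.57% to 7.18%.

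With the mitochondrial total as library size in the same edgeR fit, 14 members were called between MI and sham averaged over genotypes, 10 higher and 4 lower. There were also 14 in fl/fl, 8 higher and 6 lower (84.1% and 0.406% of all rows), and 14 in CKO, 10 higher and 4 lower (77.9% and 0.463% of all rows). On that scale, for the averaged comparison, 89.1% of all rows were called higher and 0.563% lower, since the nuclear rows take a larger part of the MI libraries, so the background says little about the members and the adjusted p lies close to the unadjusted one. The shares of 14 members did not overlap between the 4 sham and the 4 MI libraries, 9 higher and 5 lower after MI; among all rows scaled to the mitochondrial total, 83.2% were higher and 0.463% lower without overlap.

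mt-Tl1 and the tRNA cluster from mt-Tw to mt-Ty gained share. mt-Tl1 took 0.0785%, 0.0623%, 0.0586% and 0.0647% of mitochondrial counts after sham and 0.104%, 0.212%, 0.138% and 0.0859% after MI, a log2 fold change of 1.01 (standard error 0.25, adjusted p = 0.003374, edgeR). The 5 tRNA rows from mt-Tw to mt-Ty gained between 0.86 and 1.08 on the log2 scale, each with the MI libraries above every sham library. mt-Tn, for example, went from 0.0274%, 0.0253%, 0.0177% and 0.0219% to 0.0392%, 0.0450%, 0.0536% and 0.0354%. Per base, mt-Tl1 had 0.0894 to 0.138 times the counts of mt-Nd1 after sham and 0.162 to 0.360 times after MI. Set against mt-Rnr2 on its other side, mt-Tl1 had 0.481 to 0.691 times the counts per base after sham and 0.841 to 1.32 times after MI.

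Of the mRNAs, mt-Nd4l, mt-Nd5 and mt-Nd2 gained share. mt-Nd5 took 7.20%, 6.67%, 6.08% and 7.36% of mitochondrial counts after sham and 9.19%, 8.75%, 9.14% and 9.93% after MI, a log2 fold change of 0.44 (standard error 0.10, adjusted p = 0.001612, edgeR). mt-Nd4l took 0.873%, 0.819%, 0.684% and 0.958% after sham and 1.26%, 1.14%, 1.15% and 1.34% after MI, and mt-Nd2, up by 0.28 on the log2 scale, took between 4.77% and 5.19% after sham and between 5.95% and 6.25% after MI. Sham and MI did not overlap in any of these. Per base, mt-Nd5 had 0.558 to 0.636 times the counts of mt-Nd4 after sham and 0.794 to 0.878 times after MI, and mt-Nd4l had 0.385 to 0.502 and 0.635 to 0.705 times.

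By shares without overlap, mt-Rnr1, mt-Ts1, mt-Nd3, mt-Co3 and mt-Co2 lay lower after MI. On this scale edgeR called only 2 of the 13 protein-coding rows lower, so not all 3 of these mRNAs passed. The shares of these mRNAs leave out the reads held by their nuclear copies, so their lack of overlap is uncertain. mt-Co2 took between 4.497% and 5.267% after sham and between 3.837% and 4.463% after MI, which just failed to overlap. mt-Rnr1 took 1.04%, 1.07%, 1.31% and 1.01% after sham and 0.530%, 0.271%, 0.536% and 0.499% after MI, a log2 fold change of -1.28 (standard error 0.21, adjusted p = 0.000225, edgeR). mt-Nd3 took 0.159%, 0.203%, 0.234% and 0.177% after sham and 0.135%, 0.125%, 0.128% and 0.122% after MI, a log2 fold change of -0.60. mt-Co3 took 5.93%, 6.52%, 6.53% and 5.75% after sham and 5.08%, 4.95%, 4.75% and 4.68% after MI, a log2 fold change of -0.35. mt-Ts1 had 0.0989 to 0.116 times the counts per base of mt-Co1 after sham and 0.0694 to 0.0785 times after MI. In contrast, mt-Co1 itself took 34.7% to 36.1% of mitochondrial counts after sham and 33.7% to 35.5% after MI, and mt-Cytb 11.02% to 11.35% and 11.09% to 11.76%. Those overlapped, with log2 fold changes of -0.04 (standard error 0.06) and 0.02 (standard error 0.08).

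**Figure D4:**
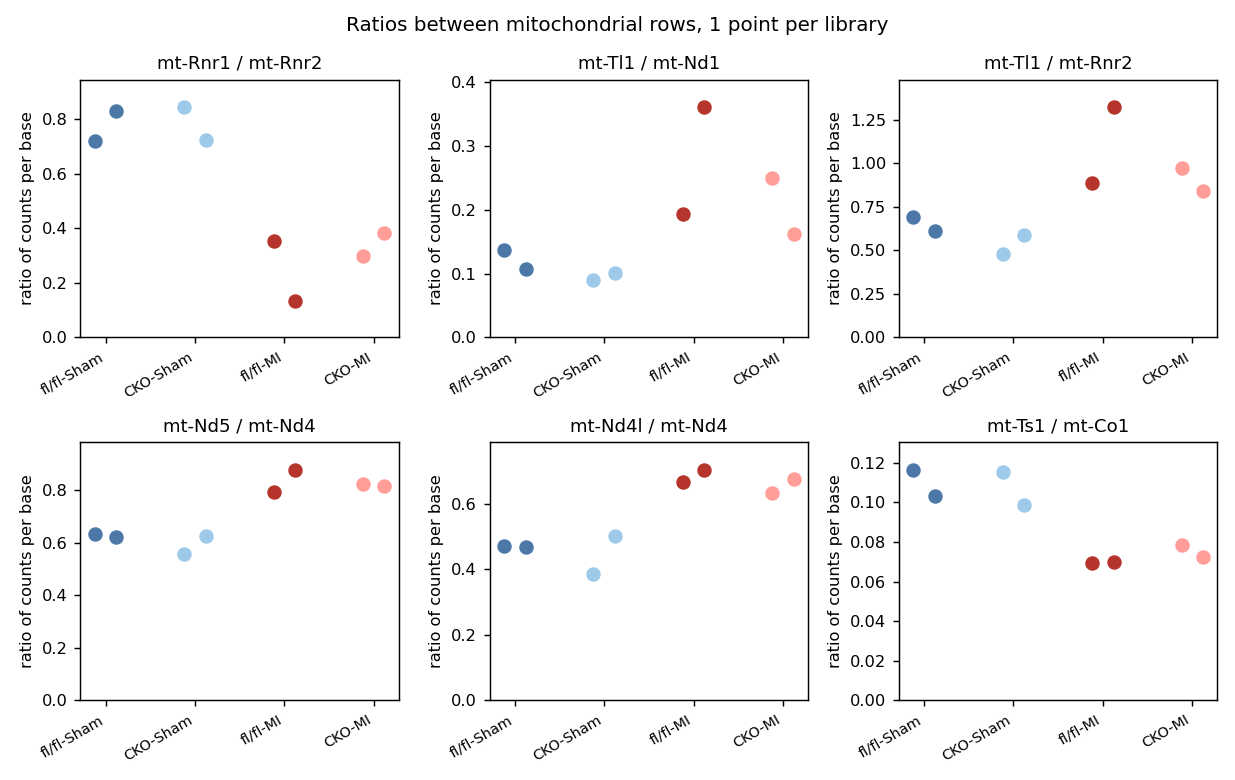
Ratio of counts per base between 6 pairs of mitochondrial rows, 1 point per library, in the 4 groups. mt-Rnr1 to mt-Rnr2 and mt-Ts1 to mt-Co1 are lower in every MI library, and the other 4 ratios are higher in every MI library; for mt-Tl1 to mt-Nd1 the sham libraries lie at 0.0894 to 0.138 and the MI libraries at 0.162 to 0.360.

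The third question was whether the labelled genotype changed these genes. After MI, no member was called in the libraries labelled CKO against fl/fl by edgeR, where 0% of all rows were called. In edgeR 2 members had an unadjusted p under 0.05 (1166 of all 14028 rows), and DESeq2 called 2 (1.48% of all rows). The 2 were the same in both, mt-Ti and mt-Tq, neighbours between mt-Nd1 and mt-Nd2 that were singled out after their values were seen. mt-Ti stood at 89.6, 68.4, 58.2 and 59.5 CPM after sham and at 13.6, 9.80, 23.8 and 24.9 CPM after MI. The difference after MI was 1.05 on the log2 scale (standard error 0.20, adjusted p = 0.454, edgeR) and by DESeq2 1.07 (adjusted p = 0.001569). mt-Tq had 120, 82.6, 70.5 and 81.3 CPM after sham and 22.3, 19.9, 34.5 and 40.2 CPM after MI, a difference of 0.82 (standard error 0.21, adjusted p = 0.5017, edgeR) and of 0.84 by DESeq2 (adjusted p = 0.03858). In both genes the libraries labelled CKO lay below fl/fl after sham and above fl/fl after MI. The library labelled fl/fl-MI 2 had the lowest value of each. Without overlap, 8 of the 37 members were higher and 0 lower in CKO-MI, beside 14.5% and 15.5% of all rows. Past an unadjusted p under 0.05 and a 2-fold change, 1 member was higher, mt-Ti, beside 0.492% of all rows.

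The protein-coding rows stayed close between the labels after MI, with log2 fold changes from -0.0012 to 0.27 and standard errors of 0.23 to 0.43. All but 1 of these differences were smaller than their standard errors, the exception being mt-Nd6 (0.27, standard error 0.27), which does not show that the genotypes act alike. The 8 rows higher without overlap in CKO-MI were 7 tRNA rows and mt-Rnr1, the latter with 1160 and 809 CPM in the libraries labelled CKO-MI against 803 and 549 CPM in those labelled fl/fl-MI, a difference of 0.54 (standard error 0.29).

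After sham surgery no member was called either by edgeR (0.00713% of all rows, 1 row) or by DESeq2 (0.242% of all rows). In edgeR 2 members, mt-Td and mt-Tg, had an unadjusted p under 0.05 (546 of all 14028 rows). Both were lower in CKO-Sham, with log2 fold changes of -0.98 (standard error 0.35) and -0.63 (standard error 0.20), and adjusted p = 0.9997 for each in edgeR. Among the tRNA rows, 15 of the 22 lay below fl/fl-Sham in both CKO-Sham libraries and none above, with a median log2 fold change of -0.43, and 23.8% of all rows were lower without overlap. Without the library labelled fl/fl-Sham 1 the median over all 37 members moved from -0.18 to -0.0039. Of the protein-coding rows, mt-Nd1 and mt-Co2 were higher without overlap in CKO-Sham (23.2% of all rows), and their differences were not called.

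Whether the effect of MI differed between the labelled genotypes was tested by the interaction. No member was called by edgeR, in which 0% of all rows were called. There 6 members had an unadjusted p under 0.05 (1191 of all 14028 rows): mt-Ti, mt-Tq, mt-Tm, mt-Td, mt-Tg and mt-Tl2. Their values ran from 0.89 for mt-Tg to 1.67 for mt-Td on the log2 scale, with adjusted p of 0.5604 to 0.5743 in edgeR. DESeq2 called mt-Ti at 1.49 (adjusted p = 0.003342) and mt-Tq at 1.25 (adjusted p = 0.02984), and 0.934% of all rows. By an unadjusted p under 0.05 with a 2-fold change 4 members were called, all higher (1.17% of all rows).

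**Figure D5:**
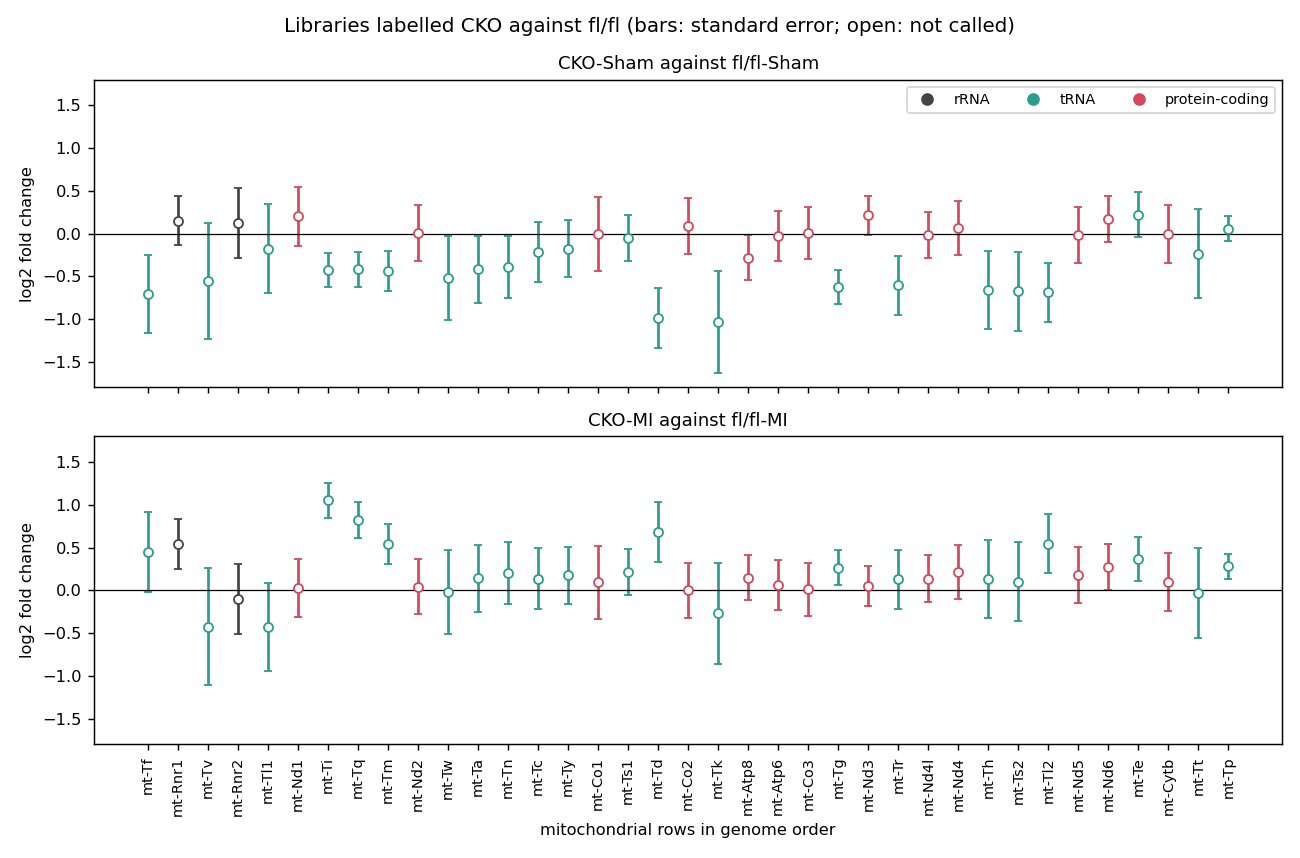
Log2 fold change between libraries labelled CKO and fl/fl after sham (upper panel) and after MI (lower panel) for the 37 mitochondrial rows in genome order, with standard errors. No row was called, so every point is open; mt-Ti and mt-Tq lie at 1.05 and 0.82 after MI.

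The nuclear genes that read, copy and process the mitochondrial genome had list medians between -0.19 and 0.16. These lists and those of the nuclear subunits were chosen with earlier results known, and the counts are descriptions. Of 15 regulators of mitochondrial transcription, 3 were higher and 3 lower after MI, with a median log2 fold change of -0.04. Of all rows 22.0% were higher and 18.3% lower, and the counts of this list and every later list are to be read against those shares. Ppargc1a, a coactivator of mitochondrial biogenesis, rose from 31.0, 28.9, 26.3 and 24.2 CPM to 67.8, 109, 79.4 and 43.4 CPM, a log2 fold change of 1.42 (standard error 0.23). Its relative Ppargc1b rose by 1.19, while Mterf3 and Mterf1a of the mitochondrial termination factor family fell by 0.59 and 0.83.

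Of 10 tested genes of mitochondrial DNA replication and maintenance, 3 fell and none rose (median -0.19). These were Polg2, the accessory subunit of the mitochondrial DNA polymerase (-0.94), Primpol, a primase and polymerase (-0.88), and Ssbp1, which binds single-stranded mitochondrial DNA (-0.46). Of 18 tested genes of RNA processing, stability and decay, 4 rose and 2 fell (median 0.16). Among the 4 named by size, Lrpprc, which stabilises mitochondrial mRNAs, rose by 0.74 and its partner Slirp fell by 0.88. Hsd17b10, a subunit of mitochondrial RNase P, fell by 0.77, and Grsf1, a protein of mitochondrial RNA granules, rose by 0.54. Slirp, Polg2, Primpol and Mterf1a were all under 8 CPM in every library.

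The nuclear partners in the chain fell less than the mitochondrial rows by median. Of 36 nuclear complex I genes, 29 fell and 1, Ndufs1, rose (median -1.09), and the largest falls were in Ndufs6 (-1.84), Ndufb2 (-1.76), Ndufa5 (-1.69) and Ndufb7 (-1.66). Of 9 complex III genes 5 fell (median -1.01), led by Uqcr11 (-1.86), Uqcrq (-1.68), Uqcr10 (-1.26) and Uqcrh (-1.15). All 12 complex IV genes of heart fell (median -1.27), led by Cox7a1 (-1.81), Cox8b (-1.76), Cox5b (-1.54) and Cox6c (-1.39). Of 15 ATP synthase genes 10 fell (median -1.03), led by Atp5e (-1.84), Atp5k (-1.77), Atp5j2 (-1.38) and Atp5h (-1.23). Complex II, which has no mitochondrially encoded subunit, had 1 gene higher (Sdha, 0.72) and 1 lower (Sdhb, -0.71) of 4, with a median of 0.05. Of 11 rows listed as nuclear copies of mitochondrial sequence 10 were lower (median -1.71), led by Gm13340 (-2.24), Gm28438 (-2.21), Gm29216 (-2.07) and Gm28437 (-1.88), and Gm15772 was not called (-0.38). None of these lists held a gene called by edgeR between the labelled genotypes or in the interaction. edgeR called 0% of all rows after MI, 0.00713% after sham and 0% in the interaction, so this says little about the lists.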

How the data were processed

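Libraries were made by the authors from poly(A) RNA with a kit that marks strand and sequenced as paired ends; cutadapt 1.9 and FastQC are named in the submitters' processing notes. Aligner, counter and build are not given in the sources used here. The deposited gene table holds counts and FPKM per library, with no per-library column left unassigned (0). Coordinates matched GENCODE M21 (GRCm38). In each library the ratio of count to FPKM times length was constant over the 18 mitochondrial rows with the most counts.

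Counts were tested with edgeR 4.0.16 (quasi-likelihood, TMM) in 1 fit of all 8 libraries, on rows with a mean FPKM of at least 0.5, with Benjamini-Hochberg adjustment over all rows. The script was tested on simulated data. Alternatives used DESeq2 1.42.0 and limma 3.58.1. Copies were found with BLAST 2.17.0, at 99% identity over 250 bases or more. Anticodons were matched in the RNA-strand sequence, after a T and before A or G. Values in every library were given for mRNA and rRNA rows, the 4 tRNA rows of highest mean count, and up to 4 called genes of largest change per pathway list by name. The gene lists were chosen with earlier results of these data known, and the members were taken by chromosome. The deposited transcript table was not used.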

Additional observations from a re-analysis of the deposited data

How the results depend on the processing

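With the mitochondrial total as library size, 14 members were called after MI in fl/fl (8 higher, 6 lower), 14 in CKO (10 higher, 4 lower) and 14 on average. On that scale only 16 of the 37 log2 fold changes of the averaged comparison stayed negative, by construction, since the sum is held fixed. Among the mRNA and rRNA rows and the 4 tRNA rows of highest mean count, those that turned positive were mt-Rnr2 (0.22), mt-Nd2 (0.28), mt-Atp8 (0.14), mt-Nd4l (0.55), mt-Nd4 (0.0030), mt-Nd5 (0.44), mt-Cytb (0.024), mt-Te (0.015), mt-Tl1 (1.01) and mt-Tn (0.92). mt-Tw, mt-Ta, mt-Tc and mt-Ty turned positive as well. On log2(TPM + 1), mt-Nd4l was at 0.10 and mt-Tn at 0.45, and 13 members were called in CKO, 2 higher and 11 lower (8654 and 171 of all rows). Fitting only the 4 libraries compared left 7 called in fl/fl (199 of all 14028 rows). DESeq2 called 2 members between CKO-MI and fl/fl-MI and 2 in the interaction, and an unadjusted p under 0.05 with a 2-fold change gave 1 and 4; the cause was not tested. The MI minus sham difference of the mitochondrial share was -23.1 percentage points, -16.7 as summed FPKM, -28.5 with the listed nuclear copies and -28.4 with the 7 of chromosome 1, the last an alternative chosen after seeing the data. Leaving out 1 library gave 6 (fl/fl-Sham 1, 126 of all rows) to 30 (fl/fl-MI 2, 4135 of all rows) members called in fl/fl, 0 (CKO-Sham 1, 25 of all rows) to 24 (fl/fl-MI 1 or 2, 5751 or 5793 of all rows) in CKO, 25 to 37 on average, 0 to 1 (fl/fl-MI 1) between CKO-MI and fl/fl-MI and in the interaction (1674 and 751 of all rows), and 0 between the sham groups. In fl/fl the count was also 8 without fl/fl-Sham 2, 17 without CKO-Sham 1 and 16 without CKO-Sham 2; in CKO it was 5 without CKO-Sham 2, 9 without CKO-MI 2 and 14 without CKO-MI 1, fl/fl-Sham 1 or fl/fl-Sham 2. Such fits let a lone library take its spread from the remaining groups, so their counts are not a measure of the size of the change. The averaged count was lowest without fl/fl-Sham 1 and highest without fl/fl-MI 2. Among these fits, the one without fl/fl-MI 2 also called the most of all rows in the averaged comparison. The members' median log2 fold change there stayed between -1.69 (without CKO-MI 1) and -1.38 (without fl/fl-Sham 1). The share difference ranged from -23.9 to -22.4 points, and the number of shares without overlap from 14 to 16. Replicate numbers did not pair the libraries (correlations of deviations from -0.21 to 0.055). With the replicate number as a block 19 members were called in fl/fl (1689 of all rows), 16 in CKO (2677 of all rows) and 29 on average (5085 of all rows). In each genotype comparison and the interaction 0 were called, where 0 of all rows were called. Limits: 2 libraries a group, labels that the check of Piezo1 (weak in bulk tissue) and Esr1 does not bear out, copies that share reads, poly(A) selection, and rows shorter than a fragment.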

Other observations

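Further ratios of counts per base between neighbouring mitochondrial rows separated sham from MI in some cases and not in others. mt-Nd6, on the minus strand, had 1.05, 1.03, 1.32 and 1.09 times the counts per base of mt-Nd5 on the plus strand after sham and 0.797, 0.705, 0.831 and 0.750 times after MI, with no overlap. Gm28439, the copy of the first part of mt-Nd4, had 0.492 to 0.537 times the counts per base of mt-Nd4 after sham and 0.552 to 0.615 times after MI, also without overlap. mt-Te had 0.445 to 0.506 and 0.453 to 0.552 times those of mt-Nd6, mt-Atp8 had 0.894 to 1.19 and 1.16 to 1.26 times those of mt-Atp6, and mt-Nd3 had 0.0604 to 0.0806 and 0.0569 to 0.0607 times those of mt-Co3, and these overlapped. Rows of the minus strand held 2.35% to 2.69% of mitochondrial counts after sham and 2.14% to 2.65% after MI.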
